A study of Mus musculus with 9 samples.

Results

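The genes described here encode the proteins of cell-cell junctions: cadherins, catenins, nectins and afadin, desmosomal proteins, tight junction proteins and connexins. The list names 46 mouse genes by symbol. Of these, 35 had a row among the 19044 Ensembl gene identifiers of the table, and the other 11 (*Cdh6*, *Cdh11*, *Cdh16*, *Dsg3*, *Dsc2*, *Dsc3*, *Cldn3*, *Cldn4*, *Tjp3*, *Epcam* and *Gjb2*) were not analysed here. The members are defined by symbol, with no threshold on a measured value. They were chosen with earlier results of these data known, so shares of members called beside those of all genes are only descriptive. They were read in RNA-seq libraries of 3 mouse squamous cell carcinoma (SCC) cell lines with 3 biological replicates each. The cells came from carcinomas induced with DMBA and TPA in FVB mice with a K14CreER transgene and floxed *FAK* alleles, and *FAK* was deleted in culture with 4-hydroxytamoxifen. The FAK-/- cells are a clone without functional FAK (focal adhesion kinase, encoded by *Ptk2*). FAK-WT cells carry wild-type FAK and FAK-kd cells a kinase-deficient FAK, each put back into the same FAK-/- clone with a retrovirus under hygromycin selection. Each condition is therefore 1 line, and the form of FAK and the line that carries it cannot be told apart. The p-values measure the spread between cultures of these lines.

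Adherens junctions join neighbouring cells through classical cadherins, whose tails bind p120-catenin and β-catenin, and α-catenin links that complex to actin. Desmosomes are built from desmosomal cadherins, plakoglobin, plakophilins and desmoplakin and anchor keratin filaments. Tight junctions seal the space between epithelial cells with claudins, occludin and junctional adhesion molecules over the ZO scaffolds, and connexins form the channels of gap junctions. Epidermal keratinocytes, the cell of origin of such carcinomas, are known for E-cadherin and abundant desmosomes, and loss of E-cadherin with gain of N-cadherin is the textbook pattern of cells that have taken on mesenchymal features.

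Levels are given as CPM, counts scaled to a common library size with TMM. The estimated counts summed to between 25304994 and 37264636 in 8 libraries and to 779755 in FAK-WT replicate 1, which is 2.31% of the median of the others. A floor of 3 counts corresponds to 3.78 CPM in FAK-WT replicate 1 and to between 0.0798 and 0.118 CPM elsewhere, so that library says little about the lowly expressed members. *Ptk2* was at 213, 216 and 216 CPM in FAK-WT, at 21.8, 23.5 and 19.6 CPM in FAK-/- and at 155, 158 and 176 CPM in FAK-kd replicates 1, 2 and 3. The *Ptk2* levels thus separated the FAK-expressing libraries from the FAK-/- libraries, as the labels have it.

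The keratinocyte markers went only partly with the label of the cells. Of 10 listed markers, 8 had a row, and the basal keratins *Krt5* and *Krt14* did not exceed 0.2398 CPM in any of the 9 libraries. The simple-epithelial keratin gene *Krt18* did not exceed 0.1199 CPM, and *Krt8* lay between 0.158 and 1.38 CPM. The integrin genes *Itga6* and *Itgb4*, which encode the hemidesmosome receptor, were expressed at 169 to 297 and 54.1 to 102 CPM. By contrast, *Vim* (vimentin) lay between 6859 and 8143 CPM in the 9 libraries, and the genes of the E-cadherin repressors *Zeb1*, *Zeb2*, *Snai1*, *Snai2* and *Twist1* all had at least 13.8 CPM in every library. Of the other mesenchymal markers, *Fn1* (fibronectin) lay between 1206 and 2117 CPM and *Tagln* at or below 0.908 CPM. The fibroblast collagen gene *Col3a1* lay between 1287 and 1913 CPM, whereas *Col1a1*, *Dcn* and *Thy1* did not exceed 1.64, 0.506 and 0.0532 CPM and *Col1a2* lay between 1.68 and 7.16 CPM. The keratin genes *Krt5*, *Krt14* and *Krt18* were therefore near or below the counting floor in all 3 lines. *Krt8*, at means of 0.227 CPM in FAK-/- and 1.02 CPM in FAK-kd cells, was called higher for FAK-kd over FAK-/- cells (log2 fold change 2.13, edgeR adjusted p = 0.00548).

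Some of these markers also differed between the lines. *Acta2* (smooth muscle actin) was at 0.977 ± 0.847 CPM in FAK-WT cells, 74.9 ± 3.40 in FAK-/- cells and 108 ± 8.999 in FAK-kd cells (SD, n = 3), with log2 fold changes of -5.69 and -6.22 for FAK-WT over the other lines (edgeR adjusted p = 1.16e-12 and 8.65e-13). *Pdgfra*, a receptor gene of fibroblasts, was at 11.1 ± 0.865 CPM, 31.03 ± 3.69 and 24.7 ± 5.59 in the same order (log2 fold changes -1.44 and -1.11, edgeR adjusted p = 1.35e-05 and 1.57e-04). *Snai2* was at 46.2 ± 0.437 CPM, 19.9 ± 1.82 and 24.8 ± 2.57, and was called higher for FAK-WT over FAK-/- cells (log2 fold change 1.21, edgeR adjusted p = 1.05e-06). Over FAK-kd cells *Snai2* was also higher, by under 2-fold (log2 fold change 0.893, edgeR adjusted p = 2.26e-05). In all, 2 of the 10 mesenchymal and 2 of the 6 fibroblast markers with a row were called for FAK-WT over FAK-/- cells (background 5.38% of all genes). Each list was split, with 1 marker called higher and 1 lower. The fibroblast marker called higher was *Dcn* (log2 fold change 2.24, edgeR adjusted p = 0.0426), with a mean of only 0.241 CPM over the 9 libraries. Against FAK-kd cells 1 marker of each list was called, both lower (background 5.26% in either direction). The summed level of the mesenchymal list was 8975 to 9248 CPM in FAK-WT, 8689 to 9881 CPM in FAK-/- and 10030 to 10780 CPM in FAK-kd cells. Most of that sum was *Vim*, with a mean of 7514 CPM, so it says little of the other markers. The keratinocyte list summed to 229 to 244 CPM in FAK-WT, 364 to 385 in FAK-/- and 348 to 356 in FAK-kd cells. Nearly all of this sum was *Itga6* and *Itgb4*, with means of 241 and 80.0 CPM over the 9 libraries. It therefore says little of the keratins and other markers of the list. Of that list only *Itga6* passed in the FAK-WT comparisons, lower by under 2-fold (log2 fold changes -0.755 and -0.607, edgeR adjusted p = 7.66e-07 and 7.40e-06). The part of these marker differences in the junction results was not tested.

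Among the junction genes, 14 had a mean of at least 10 CPM in each of the 3 lines, 3 had their highest line mean from 1 to under 10 CPM, and 16 stayed under 1 CPM in every line. Members of the first kind were *Cdh2*, *Cdh13*, *Ctnna1*, *Ctnnb1*, *Ctnnd1*, *Nectin1*, *Nectin3*, *Afdn*, *Jup*, *Pkp3*, *Pkp4*, *Cldn12*, *Tjp1* and *Gja1*. The other two, *Pkp1* and *Cldn6*, had a mean of at least 10 CPM in some lines and under 10 CPM in others. The edgeR filter for expressed genes (filterByExpr) kept 23 of the 35 members. The 12 that it did not keep were *Cdh1* (E-cadherin), *Cdh3* (P-cadherin), *Cdh4*, *Ctnna2*, *Dsg2*, *Dsp* (desmoplakin), *Perp*, *Cldn7*, *Ocln* (occludin), *Marveld2*, *F11r* and *Cgn*. None of these 12 had more than 5 counts in any library. The plot of levels by library shows this division between a well expressed group and a group at the floor.

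**Figure D1:**
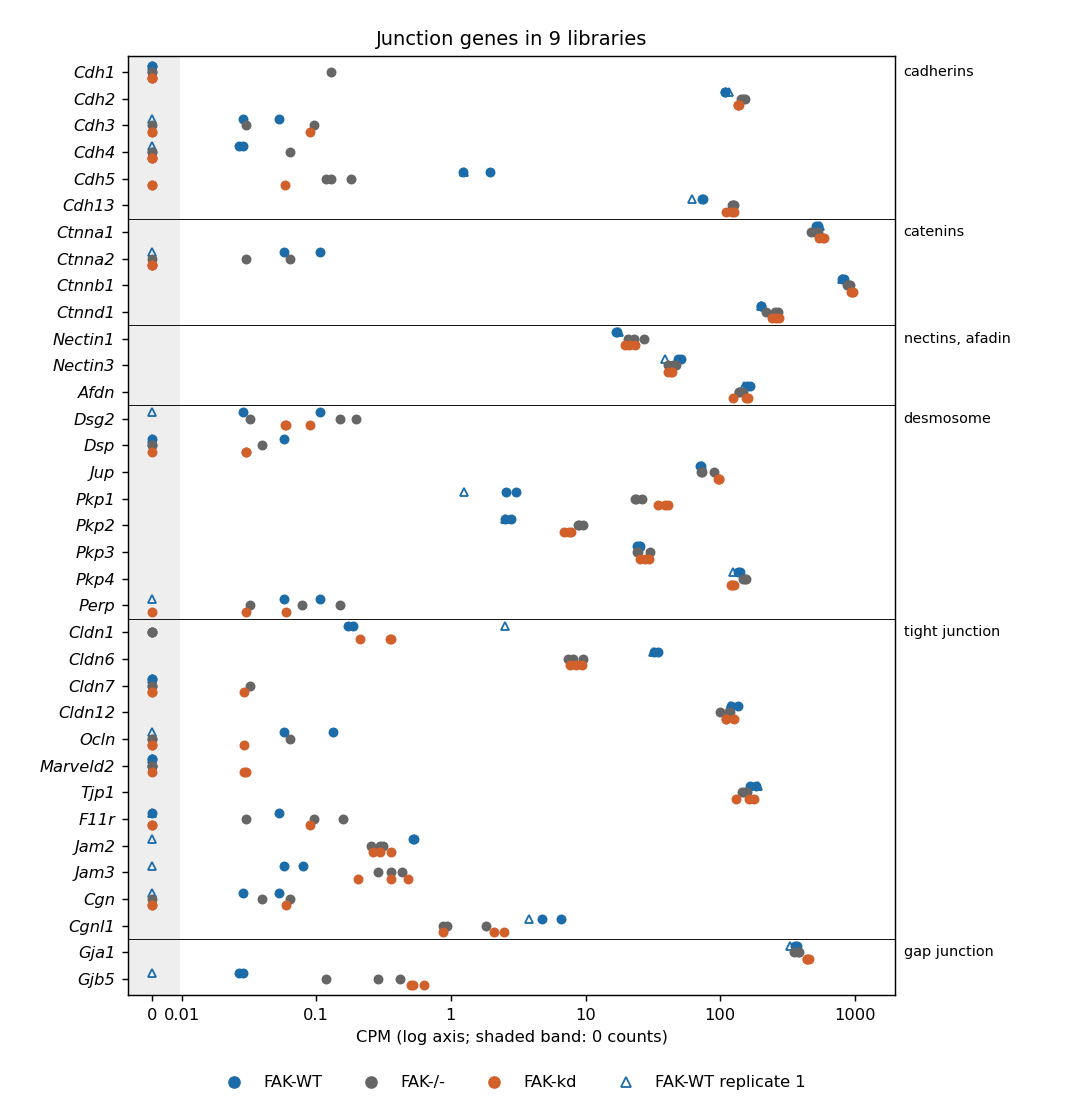
Level of the 35 junction genes in each of the 9 libraries, in CPM on a log axis with values of 0 in a band of their own, coloured by cell line. The open triangles mark FAK-WT replicate 1, whose 3-count floor lies at 3.78 CPM, and the 12 genes not kept by the filter lie at or near 0 in all 3 lines.

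For E-cadherin, *Cdh1* had 0 counts in the 3 FAK-WT and the 3 FAK-kd libraries and 0, 0 and 4 counts in FAK-/- replicates 1, 2 and 3. *Cdh3* had 0, 2 and 1 counts in FAK-WT cells, 1, 0 and 3 in FAK-/- cells and 0, 3 and 0 in FAK-kd cells. *Dsp*, which ties desmosomes to keratin filaments, had 0, 0 and 2 counts in FAK-WT cells, 0, 1 and 0 in FAK-/- cells and 1, 1 and 0 in FAK-kd cells. These 3 genes were thus at or near the floor in all lines, and a difference between lines was not detectable at this depth. *Dsg2*, a desmosomal cadherin, had 0, 4 and 1 counts in FAK-WT cells, 5, 5 and 1 in FAK-/- cells and 2, 3 and 2 in FAK-kd cells. *Ocln* had 0, 5 and 2 counts in FAK-WT cells, 0, 0 and 2 in FAK-/- cells and 0, 0 and 1 in FAK-kd cells. *Cldn7*, an epithelial claudin gene, had 1 count in FAK-/- replicate 3, 1 in FAK-kd replicate 3 and none elsewhere. In none of these did the lines separate.

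A gene is said to have risen or fallen where its Benjamini-Hochberg adjusted p over all 19044 genes was 0.05 or below in edgeR's quasi-likelihood test, and to have been called where its fold change was also at least 2. For FAK-WT over FAK-/- cells, 8 of the 35 members (22.9%) were called, against 5.38% of all genes tested. The 4 called higher in FAK-WT cells (background 2.32%) were *Cdh5*, *Cldn1*, *Cldn6* and *Cgnl1*, and the 4 called lower (background 3.06%) were *Pkp1*, *Pkp2*, *Jam3* and *Gjb5*. By the adjusted p alone 4 members rose, against 8.01% of all genes, and 8 fell, against 9.96%. These were 12 in all, against 18% of all genes. The median log2 fold change of the 35 members was -0.09, against 0.00 over all genes.

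For FAK-WT over FAK-kd cells, 7 of the 35 members (20.0%) were called, against 5.26% of all genes. *Cdh5*, *Cldn6* and *Cgnl1* were called higher (background 2.37%) and *Pkp1*, *Pkp2*, *Jam3* and *Gjb5* lower (background 2.89%). Both comparisons share the FAK-WT libraries. By the adjusted p alone 3 members rose, against 7.58% of all genes, and 10 fell, against 10.2%. Together they were 13, against 17.7% of all genes in either direction, and the median log2 fold change was -0.04. For FAK-kd over FAK-/- cells only *Cldn1* was called, which was higher (2.86% of the members, against 2.01% of all genes called in either direction, 0.914% higher and 1.09% lower). By the adjusted p alone *Cldn1*, *Pkp1*, *Jup* and *Gja1* rose (background 3.97%) and *Pkp4* fell (background 3.88%), 5 in all against 7.84% of all genes, and the median was -0.04. FAK-WT over FAK-kd is also the test of whether the wild-type and the kinase-deficient form differed in their effect over FAK-/- cells.

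Among the 23 members kept by the filter, 17 had no overlap between the FAK-WT and FAK-/- libraries, against 42.5% of all genes kept. FAK-WT and FAK-kd libraries did not overlap in 15 members, where the background was 47.7%, and FAK-kd and FAK-/- libraries in 11, with a background of 35.3%. Among the 17 were *Cdh5*, *Cldn1*, *Jam3* and *Gjb5*, which had few or no counts in at least 1 line. They passed the filter through the libraries where they were higher. FAK-WT replicate 1 had 0 counts of *Jam3* and *Gjb5*, so it says little about their overlap. The counts of members without overlap are therefore only descriptive. The plot of fold changes shows the members in the 3 comparisons.

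**Figure D2:**
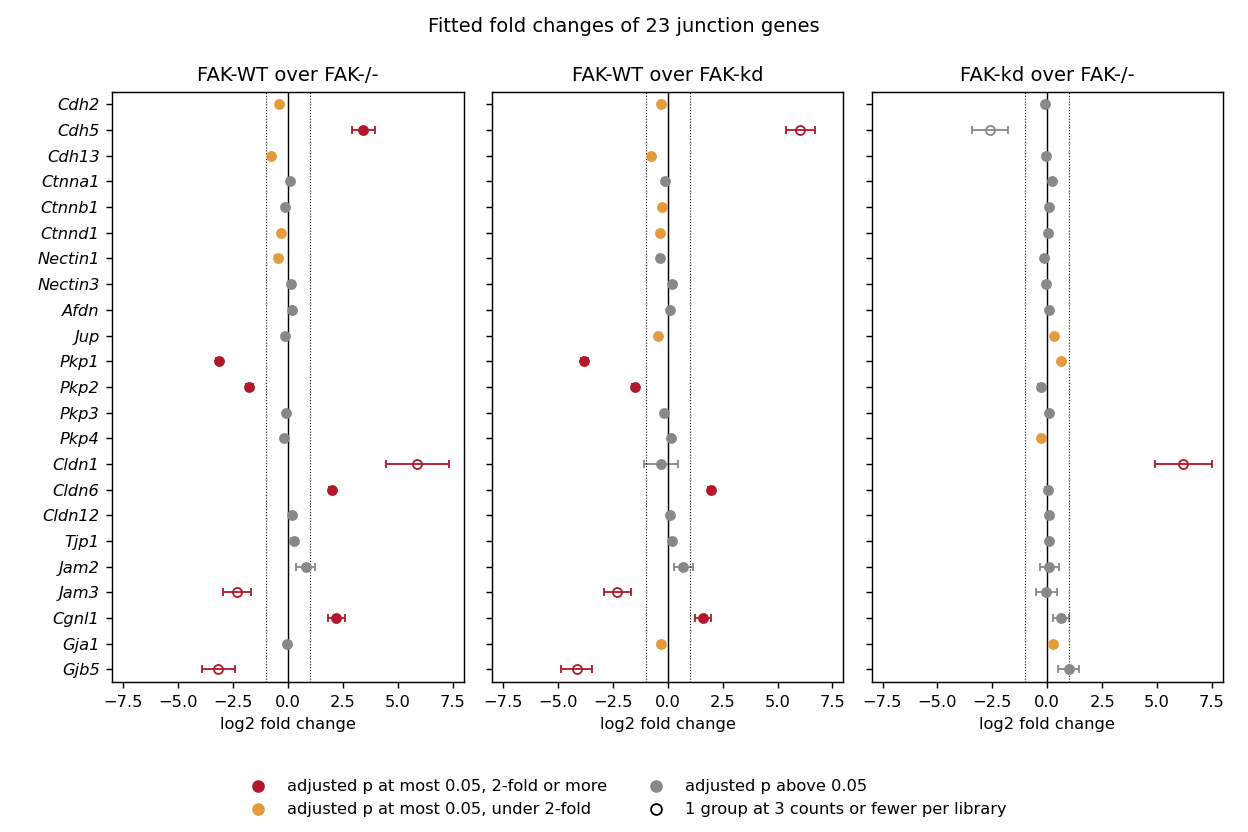
Log2 fold change with its standard error (edgeR) of the 23 members kept by the filter, in 3 panels for the 3 comparisons of the lines, with open symbols where 1 line had no more than 3 counts in any of its libraries. In both FAK-WT comparisons *Pkp1* and *Pkp2* lie on the negative and *Cldn6* and *Cgnl1* on the positive side, while in FAK-kd over FAK-/- cells all 4 lie within a log2 fold change of 1.

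Of the 4 plakophilin genes, *Pkp1* and *Pkp2* separated FAK-WT cells from both other lines. Plakophilins are armadillo proteins that cluster desmosomal cadherins and bind desmoplakin. *Pkp1* (ENSMUSG00000026413, GRCm38 chromosome 1, 135871395 to 135919207, minus strand) is the form typical of stratified epithelia. Its level was 1.26, 2.56 and 3.03 CPM in FAK-WT, 23.2, 23.9 and 26.1 CPM in FAK-/- and 34.2, 38.9 and 41.0 CPM in FAK-kd replicates 1, 2 and 3. All 9 values fell into 3 ranges that did not overlap, with FAK-WT cells lowest and FAK-kd cells highest. FAK-WT replicate 1 held 1 count of *Pkp1*, and replicates 2 and 3 held 96 and 105. The log2 fold change of *Pkp1* was -3.15 for FAK-WT over FAK-/- cells (SE, its standard error, 0.14, edgeR adjusted p = 7.16e-10) and -3.79 for FAK-WT over FAK-kd cells (SE 0.14, adjusted p = 9.52e-11). *Pkp1* rose by 0.64 on the log2 scale for FAK-kd over FAK-/- cells (SE 0.10, edgeR adjusted p = 0.00102), which is under the 2-fold minimum. In bulk RNA, fewer cells that express a gene and less of its RNA per cell cannot be told apart.

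*Pkp2* (ENSMUSG00000041957, GRCm38 chromosome 16, 16213318 to 16272712, plus strand) encodes the plakophilin found in heart and simple epithelia. It was at 2.52, 2.53 and 2.80 CPM in FAK-WT, at 9.62, 8.75 and 8.87 CPM in FAK-/- and at 7.86, 6.92 and 7.53 CPM in FAK-kd cells. All 3 FAK-WT libraries lay below the other 6. FAK-WT replicate 1 held 2 counts of *Pkp2*, below its floor of 3 counts, and replicates 2 and 3 held 95 and 97. Its log2 fold change was -1.77 over FAK-/- cells (SE 0.15, edgeR adjusted p = 8.46e-07) and -1.48 over FAK-kd cells (SE 0.15, adjusted p = 5.38e-06). *Pkp2* had a log2 fold change of -0.29 for FAK-kd over FAK-/- cells (SE 0.13, edgeR adjusted p = 0.214), so the order of these lines was not settled.

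*Pkp3*, the plakophilin of most epithelia, lay between 24.0 and 30.3 CPM in all 9 libraries, with means of 24.8 ± 0.675 CPM in FAK-WT cells, 26.3 ± 3.52 in FAK-/- cells and 27.6 ± 2.04 in FAK-kd cells (SD, n = 3). It passed the test in none of the 3 comparisons. Per kb of annotated transcript, *Pkp1*, *Pkp2* and *Pkp3* together were at 9.88 ± 0.150 CPM per kb in FAK-WT cells, 17.3 ± 1.47 in FAK-/- cells and 20.1 ± 1.36 in FAK-kd cells (SD, n = 3). The share of *Pkp3* in that sum was 86.0% ± 2.37 for FAK-WT, 51.8% ± 2.46 for FAK-/- and 46.9% ± 0.349 for FAK-kd cells (SD, n = 3). *Pkp1* made up 4.93% ± 1.97, 30.2% ± 0.960 and 40.4% ± 1.103 in the same order. The 3 plakophilins thus differed in how they varied between the lines, and *Pkp3* was the most abundant of them per kb in each line.

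**Figure D3:**
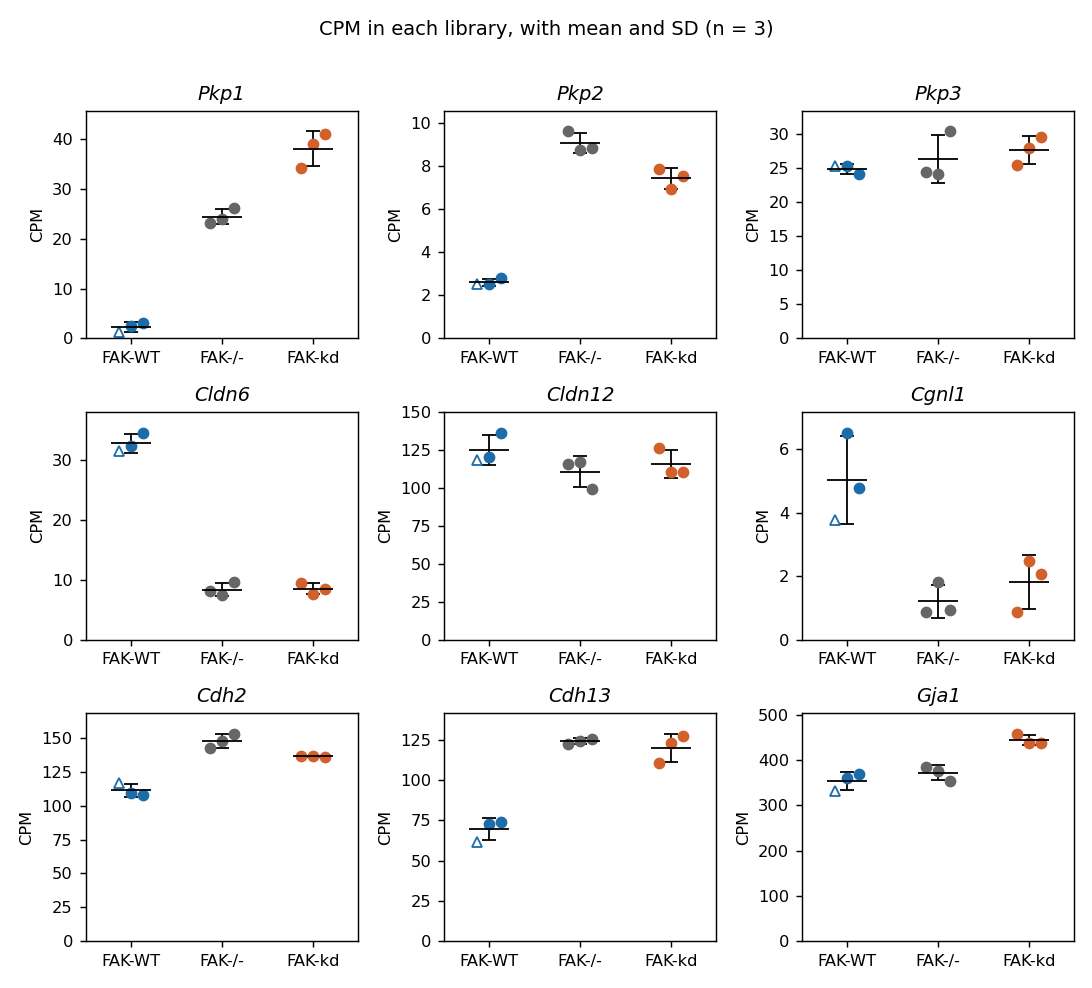
CPM of *Pkp1*, *Pkp2*, *Pkp3*, *Cldn6*, *Cldn12*, *Cgnl1*, *Cdh2*, *Cdh13* and *Gja1* in each library by cell line, with the mean and SD of the 3 replicates. The FAK-WT points lie below the FAK-/- and FAK-kd points for *Pkp1*, *Pkp2*, *Cdh2* and *Cdh13* and above them for *Cldn6* and *Cgnl1*, and the 9 values of *Pkp3* lie between 24.0 and 30.3 CPM.

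*Pkp4*, a relative of p120-catenin found at adherens junctions and desmosomes, followed another order. It was at 123, 141 and 135 CPM in FAK-WT, 153, 148 and 156 CPM in FAK-/- and 121, 126 and 123 CPM in FAK-kd cells. The FAK-/- libraries were highest. *Pkp4* fell by 0.30 on the log2 scale for FAK-kd over FAK-/- cells (SE 0.06, edgeR adjusted p = 0.00789), a change that no longer passed without FAK-kd replicate 3 (log2 fold change -0.31, adjusted p = 0.0536). Its log2 fold change for FAK-WT over FAK-/- cells was -0.17 (edgeR adjusted p = 0.0919).

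*Jup* encodes plakoglobin (γ-catenin), which occurs in both desmosomes and adherens junctions. It was at 73.0, 72.4 and 70.8 CPM in FAK-WT, 71.5, 73.3 and 89.6 CPM in FAK-/- and 96.4, 98.1 and 97.3 CPM in FAK-kd cells. The FAK-kd libraries lay above the other 6, and FAK-WT and FAK-/- libraries overlapped. *Jup* fell by 0.44 on the log2 scale for FAK-WT over FAK-kd cells (SE 0.09, edgeR adjusted p = 0.00215). For FAK-kd over FAK-/- cells it rose by 0.32 (SE 0.08, edgeR adjusted p = 0.0264). That rise no longer passed without FAK-kd replicate 1, 2 or 3, FAK-/- replicate 1 or 2, or FAK-WT replicate 2 or 3, with log2 fold changes of 0.25 to 0.32 and adjusted p between 0.0502 and 0.125. It had an adjusted p of 0.0784 when only those 2 lines were fitted. For FAK-WT over FAK-/- cells the log2 fold change was -0.12 (SE 0.09, edgeR adjusted p = 0.3997). Of the 8 desmosomal members with a row, *Pkp1* and *Pkp2* were called lower against both other lines (3.06% of all genes against FAK-/- and 2.89% against FAK-kd cells) and none was called higher.

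Among the tight junction genes with a mean of at least 1 CPM, *Cldn6* and *Cgnl1* were called higher in FAK-WT cells. *Cldn6* (ENSMUSG00000023906, GRCm38 chromosome 17, 23679249 to 23682446, plus strand) encodes claudin-6, a claudin of embryonic epithelia. It was at 31.5, 32.2 and 34.5 CPM in FAK-WT, 8.09, 7.37 and 9.60 CPM in FAK-/- and 9.44, 7.67 and 8.43 CPM in FAK-kd cells. All 3 FAK-WT libraries, replicate 1 included, stood together above the other 6, among which the lines overlapped. The log2 fold change of *Cldn6* was 1.98 over FAK-/- cells (SE 0.12, edgeR adjusted p = 1.73e-08) and 1.96 over FAK-kd cells (SE 0.12, adjusted p = 1.64e-08). Between FAK-kd and FAK-/- cells it was 0.02 (SE 0.12, edgeR adjusted p = 0.974).

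*Cgnl1* (ENSMUSG00000032232, GRCm38 chromosome 9, 71626509 to 71771602, minus strand) encodes paracingulin, a scaffold protein of tight and adherens junctions. It was at 3.78, 6.52 and 4.79 CPM in FAK-WT, 0.869, 1.81 and 0.928 CPM in FAK-/- and 0.869, 2.49 and 2.08 CPM in FAK-kd cells. All 3 FAK-WT libraries lay above all others, and FAK-WT replicate 1 was at its 3-count floor. Its log2 fold change was 2.20 over FAK-/- cells (SE 0.38, edgeR adjusted p = 7.26e-04) and 1.59 over FAK-kd cells (SE 0.37, adjusted p = 0.00611). Without FAK-WT replicate 2 the second of these was 1.35 with an adjusted p of 0.0736. The log2 fold change of *Cgnl1* for FAK-kd over FAK-/- cells was 0.61 (SE 0.37, edgeR adjusted p = 0.395).

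*Cldn12*, a broadly expressed claudin gene, lay between 99.2 and 137 CPM in the 9 libraries and passed the test in no comparison. Per kb, *Cldn6* made up 37.8% ± 0.743 of the sum of *Cldn6* and *Cldn12* in FAK-WT cells, 15.0% ± 2.96 in FAK-/- and 14.5% ± 0.617 in FAK-kd cells (SD, n = 3). The sum itself was 53.5 ± 3.64 CPM per kb in FAK-WT cells, 34.7 ± 2.04 in FAK-/- cells and 36.2 ± 2.89 in FAK-kd cells (SD, n = 3).

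*Tjp1* encodes ZO-1, the scaffold below claudins and occludin. It was at 191, 184 and 168 CPM in FAK-WT, 150, 158 and 144 CPM in FAK-/- and 131, 162 and 178 CPM in FAK-kd cells. All 3 FAK-WT libraries lay above the FAK-/- libraries and overlapped with the FAK-kd libraries. The log2 fold change of *Tjp1* was 0.25 over FAK-/- cells (SE 0.10, edgeR adjusted p = 0.0955) and 0.19 over FAK-kd cells (SE 0.10, adjusted p = 0.224). The first of these passed without FAK-kd replicate 1 (log2 fold change 0.26, adjusted p = 0.0254) and when only the 2 lines were fitted (adjusted p = 0.0444). Of the 12 tight junction members with a row, FAK-WT cells had 3 called higher and 1 lower against FAK-/- cells (2.32% and 3.06% of all genes), and 2 higher and 1 lower against FAK-kd cells (2.37% and 2.89% of all genes).

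The promoters of 3 members are shown: *Cldn6* and *Cgnl1*, the called members with a mean of at least 1 CPM that had a window in the table used, and *Gja1*, the member with a mean of at least 1 CPM in whose window the letters of an AP-1 motif occurred. The sequences are from RefSeq (GRCm38.p6), in the direction of transcription, and end at the base before the annotated start. *Gja1* is chr10:56377050-56377299 (plus strand, with the AP-1 letters in capitals, 19 bases before the start), *Cgnl1* is chr9:71771603-71771852 (minus strand) and *Cldn6* is chr17:23679115-23679248 (plus strand, the part before the earliest annotated start).
Gja1: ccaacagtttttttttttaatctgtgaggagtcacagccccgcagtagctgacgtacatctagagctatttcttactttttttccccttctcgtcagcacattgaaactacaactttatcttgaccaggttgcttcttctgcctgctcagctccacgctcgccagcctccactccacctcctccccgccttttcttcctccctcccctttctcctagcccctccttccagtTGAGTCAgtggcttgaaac
Cgnl1: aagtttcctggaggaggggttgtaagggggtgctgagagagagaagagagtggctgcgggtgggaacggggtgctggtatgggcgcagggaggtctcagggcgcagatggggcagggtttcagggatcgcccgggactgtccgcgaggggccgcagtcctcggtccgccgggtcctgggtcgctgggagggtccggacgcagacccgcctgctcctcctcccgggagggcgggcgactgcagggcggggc
Cldn6: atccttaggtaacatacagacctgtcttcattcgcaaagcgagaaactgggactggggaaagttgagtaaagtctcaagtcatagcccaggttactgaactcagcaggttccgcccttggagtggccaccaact

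Windows of 250 bases before the RefSeq start were searched on both strands for CAGGTG, the E-box core read by Snail and Zeb factors, and for TGANTCA, the AP-1 letters. Of the 35 members, 20 had such windows, 28 in all. CAGGTG occurred in 6 of the 28 (*Cldn6*, *Cldn7*, *Ctnna2*, *F11r*, *Ocln* and *Pkp4*) and in 17.2% of all 32851 windows of the table. TGANTCA occurred in 2 of the 28 (*F11r* and *Gja1*) and in 6.75% of all windows. In *Cldn6* the CAGGTG lay 93 bases before the RefSeq start, downstream of the printed stretch. The *Cgnl1* window held neither motif and 20 CpG dinucleotides with a GC content of 70.8%, whereas that of *Gja1* held 6 CpG at 50.0%. A match of letters describes the window and is not evidence of binding. In *F11r*, whose window held both motifs, the matches did not overlap.

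The cadherins that were well expressed were *Cdh2* and *Cdh13*. *Cdh2* encodes N-cadherin, the classical cadherin of mesenchymal and neural cells. It was at 117, 109 and 108 CPM in FAK-WT, 143, 148 and 153 CPM in FAK-/- and 137, 137 and 136 CPM in FAK-kd cells. All 3 FAK-WT libraries lay below the other 6. *Cdh2* fell by 0.43 on the log2 scale over FAK-/- cells (SE 0.07, edgeR adjusted p = 2.58e-04) and by 0.31 over FAK-kd cells (SE 0.07, adjusted p = 0.00320), both under the 2-fold minimum. Between FAK-kd and FAK-/- cells the log2 fold change was -0.11 (SE 0.06, edgeR adjusted p = 0.322).

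*Cdh13* encodes T-cadherin, which is held in the membrane by a lipid anchor and has no tail to bind catenins. It was at 61.7, 73.0 and 73.9 CPM in FAK-WT, 122, 124 and 126 CPM in FAK-/- and 111, 123 and 127 CPM in FAK-kd cells. FAK-WT cells were again the lowest of the lines, and FAK-/- and FAK-kd libraries overlapped. *Cdh13* fell by 0.79 on the log2 scale over FAK-/- cells (SE 0.08, edgeR adjusted p = 3.26e-06) and by 0.74 over FAK-kd cells (SE 0.08, adjusted p = 5.99e-06). FAK-kd over FAK-/- cells gave a log2 fold change of -0.05 (SE 0.07, edgeR adjusted p = 0.766). Per kb, *Cdh2* and *Cdh13* together were at 41.4 ± 0.805 CPM per kb in FAK-WT cells, 63.4 ± 1.55 in FAK-/- cells and 60.0 ± 2.26 in FAK-kd cells (SD, n = 3). *Cdh2* was 55.7% ± 3.54 of that sum in FAK-WT cells, 48.2% ± 0.547 in FAK-/- cells and 47.1% ± 1.83 in FAK-kd cells (SD, n = 3).

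*Ctnnb1* and *Ctnna1* were the most abundant junction transcripts per kb in each line, and neither they nor *Ctnnd1* differed by 2-fold between any of the lines. *Ctnnb1*, which encodes β-catenin, the cadherin partner that also acts in Wnt signalling, was at 806, 824 and 796 CPM in FAK-WT, 902, 916 and 874 CPM in FAK-/- and 956, 943 and 965 CPM in FAK-kd cells. The 3 lines did not overlap and FAK-WT cells were lowest. *Ctnnb1* fell by 0.24 on the log2 scale over FAK-kd cells (SE 0.06, edgeR adjusted p = 0.00784), which no longer passed without FAK-WT replicate 3 (log2 fold change -0.23, adjusted p = 0.0720). Its log2 fold change over FAK-/- cells was -0.15 (SE 0.06, edgeR adjusted p = 0.0882), and it passed without FAK-/- replicate 3 (-0.17, adjusted p = 0.00996). That difference also passed in DESeq2 (adjusted p = 0.0335), with filterByExpr (0.0497) and with at least 10 counts in every library (0.0217). The log2 fold change of *Ctnnb1* for FAK-kd over FAK-/- cells was 0.09 (SE 0.06, edgeR adjusted p = 0.415). Of the 31-base words of *Ctnnb1* transcripts, 13.2% also occur in transcripts of another gene.

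*Ctnna1*, the gene of αE-catenin, was at 554, 533 and 510 CPM in FAK-WT, 506, 529 and 469 CPM in FAK-/- and 545, 584 and 594 CPM in FAK-kd cells. FAK-WT libraries overlapped with both other lines. Its log2 fold changes were 0.08 for FAK-WT over FAK-/- (SE 0.07, edgeR adjusted p = 0.488), -0.11 for FAK-WT over FAK-kd (SE 0.07, adjusted p = 0.309) and 0.20 for FAK-kd over FAK-/- cells (SE 0.07, adjusted p = 0.0962). *Ctnnd1*, which encodes p120-catenin, a stabilizer of cadherins at the membrane, lay between 200 and 201 CPM in FAK-WT, between 219 and 271 in FAK-/- and between 241 and 274 in FAK-kd cells. It fell by 0.31 on the log2 scale over FAK-/- cells (SE 0.08, edgeR adjusted p = 0.0154) and by 0.36 over FAK-kd cells (SE 0.08, adjusted p = 0.00574). The first of these no longer passed without FAK-/- replicate 1 or 2 or FAK-WT replicate 2 or 3, with log2 fold changes of -0.31 to -0.25 and adjusted p between 0.0578 and 0.0775. The second no longer passed without FAK-kd replicate 3 (-0.31, adjusted p = 0.0519). Because 58.6% of its 31-base words also occur in transcripts of another gene, the assignment of *Ctnnd1* counts is uncertain. *Ctnna2*, the gene of the neural αN-catenin, had 0, 4 and 2 counts in FAK-WT, 1, 0 and 2 in FAK-/- and none in FAK-kd cells. It did not pass for FAK-WT over FAK-kd cells (edgeR adjusted p = 0.0647) but was called when only these lines were fitted, which made 8 members called in that fit. Taken against the floor of 3 counts per library, its counts set no fold above 1. In the fit of all 9 libraries none of the 4 catenin genes with a row was called in any comparison.

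**Figure D4:**
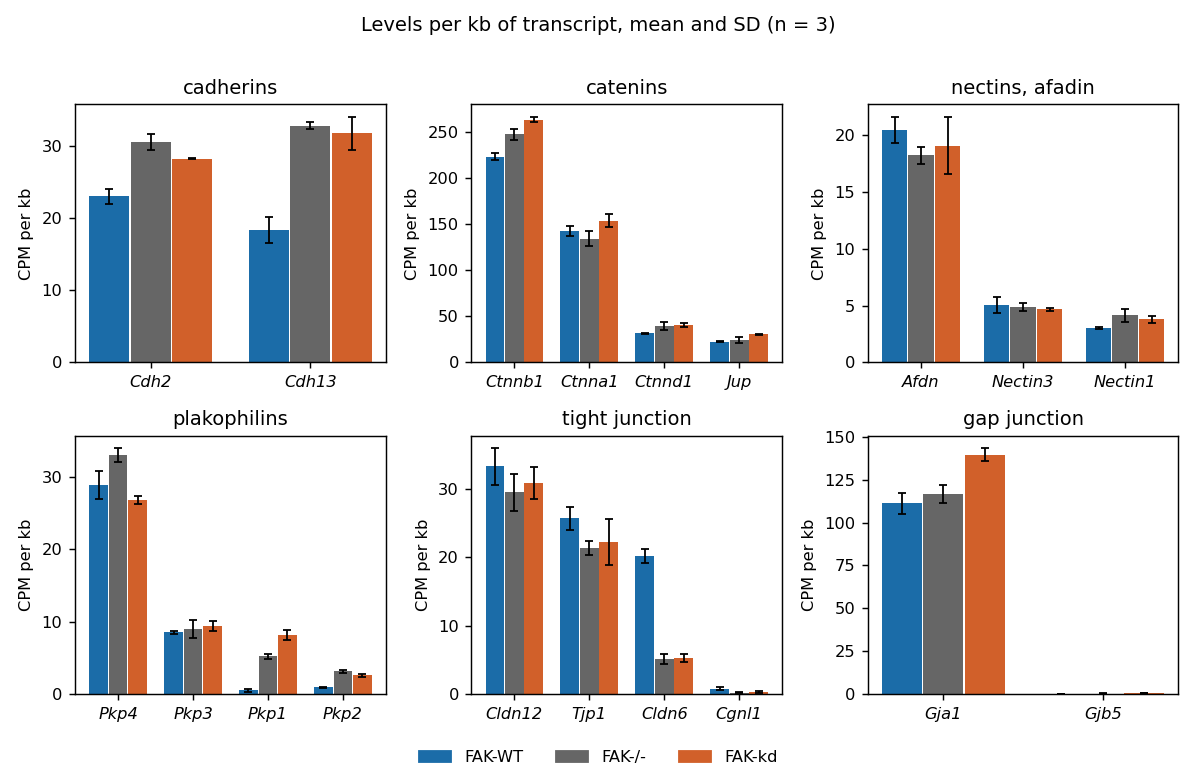
Level per kb of annotated transcript (CPM per kb, mean ± SD of 3 libraries per line) of the expressed members of each junction family, as bars from 0. The bars of *Ctnnb1* and *Ctnna1* are the highest of the catenins in each line, and *Pkp1* is at 0.488 CPM per kb in FAK-WT cells, 5.22 in FAK-/- cells and 8.15 in FAK-kd cells.

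Nectins are immunoglobulin-like adhesion molecules that afadin links to actin. *Nectin1* was at 17.6, 17.1 and 16.7 CPM in FAK-WT, 22.7, 20.7 and 27.1 CPM in FAK-/- and 21.2, 23.4 and 19.8 CPM in FAK-kd cells. For this gene, FAK-WT replicate 1 held only 14 counts. All 3 FAK-WT libraries lay below the other 6. It fell by 0.47 on the log2 scale over FAK-/- cells (SE 0.12, edgeR adjusted p = 0.0108), and no longer passed without FAK-WT replicate 2 (-0.47, adjusted p = 0.0599) or 3 (-0.45, adjusted p = 0.0753). Over FAK-kd cells its log2 fold change was -0.34 (SE 0.12, edgeR adjusted p = 0.0628), and it passed without FAK-/- replicate 3 (-0.34, adjusted p = 0.00664) and when only the 2 lines were fitted (adjusted p = 0.0134). *Nectin3* lay between 39.03 and 51.4 CPM and *Afdn* (afadin) between 125 and 168 CPM in the 9 libraries, and neither passed the test in any comparison.

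*Gja1* encodes connexin 43, the gap junction protein of many cell types including basal keratinocytes and fibroblasts. It was at 332, 360 and 369 CPM in FAK-WT, 386, 376 and 353 CPM in FAK-/- and 458, 438 and 438 CPM in FAK-kd cells. The FAK-kd libraries lay above the other 6, and FAK-WT and FAK-/- libraries overlapped. *Gja1* fell by 0.32 on the log2 scale for FAK-WT over FAK-kd cells (SE 0.07, edgeR adjusted p = 0.00295). Over FAK-/- cells, FAK-kd cells had *Gja1* higher by 0.26 (SE 0.06, edgeR adjusted p = 0.0227). That rise no longer passed without FAK-kd replicate 1, 2 or 3, FAK-/- replicate 2, or FAK-WT replicate 2 or 3, with log2 fold changes of 0.23 to 0.27 and adjusted p between 0.0531 and 0.103. It had an adjusted p of 0.0541 when only those 2 lines were fitted. The difference between FAK-WT and FAK-/- cells was -0.06 on the log2 scale (SE 0.07, edgeR adjusted p = 0.571).

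The other 4 called members had a mean under 1 CPM over the 9 libraries, and their values are given although they were chosen after these were seen. *Cdh5* encodes VE-cadherin, the cadherin of endothelial cells. It had 1, 74 and 43 counts in FAK-WT, 6, 3 and 4 in FAK-/- and 0, 0 and 2 in FAK-kd replicates 1, 2 and 3. In CPM these were 1.26, 1.97 and 1.24 in FAK-WT cells, 0.18, 0.118 and 0.128 in FAK-/- cells and 0, 0 and 0.0586 in FAK-kd cells. The log2 fold change of *Cdh5* over FAK-/- cells was 3.42 (SE 0.53, edgeR adjusted p = 2.72e-04). Over FAK-kd cells the call had an adjusted p of 1.21e-05 (edgeR), and the pooled counts of 118 and 2 gave a depth-adjusted ratio of 81.5 with a 95% counting interval of 22.1 to 681. Both FAK-kd counts were in replicate 3, and without that library, which leaves FAK-kd cells at 0, the fitted log2 fold change moved from 6.04 to 8.51. Of 8 endothelial markers 6 had a row, and their summed level including *Cdh5* was 1.26 to 2.16 CPM in FAK-WT, 0.479 to 0.907 in FAK-/- and 0.390 to 0.732 in FAK-kd cells. The endothelial genes *Pecam1*, *Kdr*, *Tek*, *Tie1* and *Vwf* each stayed at or below 0.394 CPM in every library.

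*Gjb5*, a connexin gene of stratified epithelia, had 0, 1 and 1 counts in FAK-WT cells, 14, 3 and 9 in FAK-/- cells and 17, 21 and 18 in FAK-kd cells. The FAK-WT counts did not exceed 1. The depth-adjusted ratio of pooled counts was 10.6 for FAK-/- over FAK-WT (95% counting interval 2.64 to 91.8) and 20.3 for FAK-kd over FAK-WT cells (5.36 to 172). The call against FAK-/- cells (edgeR adjusted p = 0.00809) was lost without FAK-WT replicate 2 (log2 fold change -3.13, adjusted p = 0.0773) or 3 (-3.23, adjusted p = 0.0664) and in DESeq2 (-2.64, adjusted p = 0.0878). The call against FAK-kd cells had an adjusted p of 7.14e-04 (edgeR).

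*Jam3*, which encodes a junctional adhesion molecule, had 0, 3 and 2 counts in FAK-WT cells, 12, 11 and 9 in FAK-/- cells and 16, 12 and 7 in FAK-kd cells. The depth-adjusted ratio was 5.20 for FAK-/- over FAK-WT (95% counting interval 2.01 to 17.1) and 5.07 for FAK-kd over FAK-WT cells (1.98 to 16.6), with adjusted p of 0.0180 and 0.0195 from edgeR. Both calls were lost without FAK-WT replicate 2 (log2 fold changes -2.58 and -2.53, adjusted p = 0.0921 and 0.0999) or 3 (-2.15 and -2.10, adjusted p = 0.138 and 0.148) and in DESeq2 (adjusted p = 0.152 and 0.169). The call against FAK-kd cells was also lost without FAK-kd replicate 1 (-1.97, adjusted p = 0.0654) or 2 (-2.25, adjusted p = 0.0509). Of the 31-base words of *Jam3*, 32.2% also occur in transcripts of another gene, so its counts are uncertain.

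*Cldn1*, the main claudin gene of epidermal tight junctions, had 2, 7 and 6 counts in FAK-WT, none in the 3 FAK-/- libraries and 7, 12 and 12 in FAK-kd cells. Taken against the floor of 3 counts per library, it was at least 2.05-fold higher in FAK-WT and at least 3.07-fold higher in FAK-kd than in FAK-/- cells, with adjusted p of 0.0109 and 0.0104 from edgeR. The call for FAK-kd over FAK-/- cells was lost without FAK-kd replicate 3 (adjusted p = 0.0532). The FAK-WT and FAK-kd libraries overlapped (edgeR adjusted p = 0.863). Counting intervals cover counting error only.

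Other genes of cell-cell junctions were read from a second list of 54 symbols, 40 of which had a row. In FAK-WT over FAK-/- cells 3 were called higher and 3 lower, in FAK-WT over FAK-kd cells 1 higher and 1 lower, and in FAK-kd over FAK-/- cells 4 higher and 1 lower. These were 15.0%, 5.0% and 12.5% of the 40, against 5.38%, 5.26% and 2.01% of all genes, so that the share for FAK-WT over FAK-kd cells was at the background. The medians of the log2 fold change over these 40 genes were 0.17, 0.01 and 0.00. *Patj*, which encodes a scaffold of the Crumbs polarity complex, was at 2.38 ± 0.679 CPM in FAK-WT cells, 0.427 ± 0.239 in FAK-/- cells and 0.237 ± 0.105 in FAK-kd cells (SD, n = 3), and was called higher in FAK-WT cells in both comparisons (log2 fold changes 2.46 and 3.27, edgeR adjusted p = 0.00140 and 1.71e-04). *Cdh24*, a classical cadherin gene, was lower in FAK-WT cells in both (log2 fold changes -1.26 and -1.25, edgeR adjusted p = 6.83e-04 and 6.43e-04).

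*Cdh26* and *Ctnnal1* (α-catulin) showed another pattern, in which FAK-WT and FAK-kd cells both lay above FAK-/- cells. *Cdh26* was at 2.19 ± 0.817 CPM in FAK-WT cells, 0.0951 ± 0.0552 in FAK-/- cells and 1.43 ± 0.146 in FAK-kd cells (SD, n = 3). *Ctnnal1* was at 46.0 ± 3.02, 16.5 ± 2.34 and 40.8 ± 2.52 CPM in the same order. Their log2 fold changes over FAK-/- cells were 4.63 and 1.5006 in FAK-WT and 3.79 and 1.31 in FAK-kd cells (edgeR adjusted p of 2.31e-05 or less). *Cldn9*, a claudin gene, was at 12.1 ± 0.287 CPM in FAK-kd and 5.35 ± 0.446 in FAK-/- cells (SD, n = 3), with a log2 fold change of 1.17 (edgeR adjusted p = 2.36e-05). Of the members with a mean of at least 1 CPM over the 9 libraries, none was called for FAK-kd over FAK-/- cells.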

How the data were processed

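RNA-seq libraries of 9 cultures of mouse SCC cells (FAK-WT, FAK-/- and FAK-kd, 3 each) were grouped by the sample titles and labels. The authors pseudoaligned paired-end reads with kallisto (0.43.1 per the submitters' processing notes, build mm10/GRCm38) and used tximport for gene-level sums. Estimated counts were deposited, rounded to whole numbers without scaling to depth, and genes at 0 in all libraries had been removed by the authors. The transcriptome release is not given in the sources used here. The preparation does not mark strand.

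Symbols, positions and lengths were taken from GENCODE M21 (GRCm38); 18856 of 19044 identifiers had a symbol. The members, lists and tests were chosen with earlier results of these data known. All genes were fitted in edgeR 4.0.16 (R 4.3.3) with TMM, no filter, the cell line as the only factor and quasi-likelihood tests, adjusted after Benjamini-Hochberg (thresholds 0.05 and 2-fold). Values per library were given for members called with a mean of at least 1 CPM and for a fixed set of epithelial junction genes. From the second list, at most 3 called genes per comparison with a mean of at least 1 CPM were named. Exceptions are marked where they occur. CPM per kb used the length of 1 annotated transcript per gene. Gene overlap was read from shared 31-base words of all transcripts. Steps were tested on simulated data in which no lowly expressed gene was changed, so calls at low counts were not covered. Alternatives were DESeq2 1.42.0, RLE and library-size scaling, filterByExpr, at least 10 counts in every library, fits of 2 lines, a replicate block, no fold minimum, glmTreat, and leaving out each library.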

Additional observations from a re-analysis of the deposited data

How the results depend on the processing

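Scaling by DESeq2's size factors or library size gave the same members called (8, 7 and 1 for FAK-WT over FAK-/-, FAK-WT over FAK-kd and FAK-kd over FAK-/- cells), as did filterByExpr and leaving out FAK-WT replicate 1. Fits of only the lines compared gave 8, 8 and 1, with *Ctnna2* added for FAK-WT over FAK-kd cells. For FAK-WT over FAK-/- cells, glmTreat gave 5 called members (2 lower), DESeq2 2 lower, no fold minimum 8 lower, and a minimum of 10 counts in every library (15 members tested) 1 called (1 higher, 0 lower). For FAK-WT over FAK-kd cells, glmTreat gave 5, without *Cgnl1* and *Jam3*, and DESeq2 gave 6, without *Jam3*. In that comparison no fold minimum gave 13 (10 lower) and at least 10 counts 1 (1 higher, 0 lower). For FAK-kd over FAK-/- cells, glmTreat and at least 10 counts gave 0 (0 higher), and no fold minimum 5 (4 higher, 1 lower). The minimum of 10 counts removed *Pkp1*, *Pkp2*, *Cgnl1*, *Cdh5*, *Cldn1*, *Jam3* and *Gjb5* before the test. Each had 3 counts or fewer in the shallow FAK-WT replicate 1. That setting therefore did not test their calls and says nothing about them.

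Leaving out each library in turn gave 6 to 8 called for FAK-WT over FAK-/- (4 higher throughout, 2 to 4 lower), 5 to 7 for FAK-WT over FAK-kd (2 to 3 higher, 3 to 4 lower) and 1 for FAK-kd over FAK-/- cells (0 to 1 higher, 0 to 1 lower). Without FAK-kd replicate 3 that 1 was *Cdh5*, lower, in place of *Cldn1*. For FAK-kd over FAK-/- cells, where neither passed the test, *Cldn6* ranged from -0.0636 to 0.135 on the log2 scale and was below 0 without FAK-kd replicate 1 (-0.0636) or FAK-/- replicate 1 (-0.00191) or 2 (-0.0598), and *Cdh13* ranged from -0.0941 to 0.00279 and was above 0 without FAK-kd replicate 1. Over all fold changes set against those reported, 668 kept their direction and side of the threshold, 38 lost and 9 gained it, and these 4 changed sign.

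Libraries with the same replicate number did not deviate together across genes (mean r -0.00768 over 9 pairs, 0.00353 over the other 18), so no pairing by number was detected. Deviations within FAK-WT carry the counting noise of the shallow replicate 1, so the check could miss a pairing there. With the replicate number as a block, 6 members were called for FAK-WT over FAK-kd cells, since *Jam3* no longer passed (log2 fold change -2.14, adjusted p = 0.0612 from edgeR), and 8 and 1 in the other comparisons. FAK-WT replicate 1 limits what can be said of members under about 3.78 CPM. Above that level its counts were still few for some members, with 14 for *Nectin1* and 25 for *Cldn6*.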
